A study of Homo sapiens with 6 samples.

Results

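Transcripts of 10 genes of mitotic control were followed before and after dinaciclib, an inhibitor of cyclin-dependent kinases that include CDK1, CDK2 and CDK9, in MDA-MB-231. MDA-MB-231 is an established human line of triple-negative breast cancer. The genes were AURKA, AURKB, PLK1, BUB1, BUB1B, TTK, NEK2, CDK1, INCENP and CDCA8, a set of mitotic kinases with 2 further subunits of the chromosomal passenger complex. Every probe set that the platform annotation gives to a single one of them was taken, which gave 19 of the 22215 probe sets tested, and 10 of 11963 genes. None (0) of the probe sets annotated to several genes named a member. The baseline group held 3 arrays of cells taken at 0 h (replicates E, 4 and 5), and the dinaciclib group 3 arrays of cells taken 12 h after the drug was added to the medium (replicates F, 4 and 5). All 6 samples came from the same cell line grown in serum-containing RPMI medium, the drug was supplied in DMSO, and the labels give neither its dose nor whether baseline cells received solvent. No group was kept for 12 h without the drug, so the drug cannot be told apart from time in culture, handling or solvent. No label says that the arrays came from separate cultures, so the p-values rest on the spread among these arrays, which may be only technical. The design asks which transcripts differed after 12 h.

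The proteins of these genes drive and guard cell division. CDK1, bound to cyclin B, starts mitosis, Aurora A (AURKA) and PLK1 mature the centrosomes and build the spindle, and NEK2 separates the centrosomes. Aurora B (AURKB) is the enzyme of the chromosomal passenger complex, in which INCENP is the scaffold, and borealin (CDCA8) and survivin (BIRC5) bring the complex to the centromere. TTK (also called MPS1), BUB1 and BUBR1 (BUB1B) form the core of the spindle assembly checkpoint, which holds back anaphase until every kinetochore is attached. Their transcripts are known to be low in G1 and to peak in G2 and mitosis in dividing cells, under promoters that carry CCAAT boxes, bound by NF-Y, and a cell cycle genes homology region (CHR). In RNA from a whole culture, fewer cells in G2 and mitosis and less transcript per cell cannot be told apart.

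Promoters are shown because most of these genes are known to be switched on together in the cell cycle. RefSeq promoter windows of GRCh38.p14, 250 bases before to 50 bases after an annotated start site, matched 8 of the 10 members by symbol in 10 windows, and AURKA and TTK did not match. Both strands of each window were searched for CCAAT and for the CHR forms TTTGAA and TTCGAA. Of all 35116 windows of this length, 34.6% held CCAAT and 16.4% a CHR form, and among the 22198 windows of protein-coding genes these shares were 34.7% and 13.7%. CCAAT was in a window of 7 of the 8 matched members and a CHR form in a window of 6. The 160 bases before the start site are given here for CDCA8, BUB1B and PLK1, which fell after dinaciclib, and for INCENP and the downstream of the 2 CDK1 windows, genes that did not pass the test. Capitals mark CCAAT (read as ATTGG where it lies on the opposite strand) and TTTGAA, which share bases with each other in CDCA8.
CDCA8 promoter (chr1:37692356-37692515, plus strand): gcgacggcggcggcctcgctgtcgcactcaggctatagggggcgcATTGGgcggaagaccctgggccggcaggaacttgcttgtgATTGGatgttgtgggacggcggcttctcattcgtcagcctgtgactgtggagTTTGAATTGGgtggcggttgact
BUB1B promoter (chr15:40160909-40161068, plus strand): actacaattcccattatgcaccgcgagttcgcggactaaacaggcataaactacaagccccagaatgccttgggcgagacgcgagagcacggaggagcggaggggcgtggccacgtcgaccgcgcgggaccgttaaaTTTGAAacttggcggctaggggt
PLK1 promoter (chr16:23678729-23678888, plus strand): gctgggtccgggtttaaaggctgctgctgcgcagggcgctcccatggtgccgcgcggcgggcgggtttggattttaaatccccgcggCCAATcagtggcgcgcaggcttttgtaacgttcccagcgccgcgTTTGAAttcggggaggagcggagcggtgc
INCENP promoter (chr11:62123851-62124010, plus strand): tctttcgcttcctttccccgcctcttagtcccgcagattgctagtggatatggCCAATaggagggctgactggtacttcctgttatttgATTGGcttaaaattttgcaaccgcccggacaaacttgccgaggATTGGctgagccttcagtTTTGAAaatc
CDK1 promoter (chr10:60778318-60778477, plus strand): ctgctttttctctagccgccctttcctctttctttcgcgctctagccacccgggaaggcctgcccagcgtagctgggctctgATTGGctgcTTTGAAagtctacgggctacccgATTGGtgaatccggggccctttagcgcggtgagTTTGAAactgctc
The first base of TTTGAA lay 23 bases before the start site in CDCA8 and in BUB1B, 29 in PLK1 and 10 in INCENP, and 69 and 13 in the CDK1 window shown. BUB1 held TTCGAA just after its start site, and the windows of NEK2 and AURKB held CCAAT but neither CHR form. The start sites of both AURKB windows lay 350 and 326 bases inside the 5-prime end of its RefSeq gene, and that of the CDK1 window shown 147 bases. Those of the other windows lay at the 5-prime end of the gene. The bases before the outermost AURKB start were thus not searched, and the members that fell are not set against the others by motif. These are letter matches in single annotated windows, and they describe the sequence, not binding.

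Intensities, 1 per probe set and array with a single biotin label, were compared as log2(intensity + 1). Median intensities were 53.3 to 66.2 at baseline and 40.6 to 46.8 after dinaciclib and did not overlap, so the arrays also differed as a whole. The 5-prime control for 18S ribosomal RNA read 736 in baseline E and 1155 in dinaciclib F, against 8273 to 9061 in the 4 numbered arrays, so lettered arrays stood apart in both groups. The 3-prime to 5-prime ratio of GAPDH control probe sets was 1.15 to 1.24, and that of ACTB was 3.64 to 6.67, lowest in the lettered arrays. All 5 mesenchymal markers of the line were bright (VIM, CD44, AXL, CAV1 and MSN, at or above the 97.5th percentile of all probe sets) and none was called. Of 13 luminal, leukocyte, endothelial and fibroblast markers, 8 lay under the 40th percentile, among them ESR1, PGR, CDH1 and PTPRC. Of the 8 luminal markers only 4 lay under it, while GATA3 (percentile 74.5), EPCAM (68.8), ERBB2 (60.3) and KRT19 (92.2) lay above it. KRT19 was bright (mean 2597 at baseline and 1047 after dinaciclib), and no marker was at 0 on any array. KRT19, ERBB2 and PECAM1 fell (3 of the 13), and the summed intensity of the 13 was 3193 to 3945 at baseline and 1504 to 2007 after dinaciclib. Without KRT19 the other 12 summed to 777 to 941 and 656 to 754. Their part in the results was not tested.

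After dinaciclib 7 of the 19 member probe sets were lowered, 0 were raised and 12 did not pass. A probe set was called at an adjusted p under 0.05 (limma over all 22215 probe sets, Benjamini-Hochberg). At an unadjusted p under 0.05, 8 of the 19 were lower and 0 higher, beside 5106 lower and 1680 higher of all 22215 probe sets. Lowered probe sets made up 36.8% of the members and 13.4% of all probe sets tested, while 3.86% of all were called higher and 17.2% in either direction. By gene, AURKB, BUB1B, CDCA8, PLK1, NEK2 and BUB1 had at least 1 lowered probe set, and AURKA, INCENP, TTK and CDK1 had none. The groups did not overlap, with every dinaciclib array below every baseline array, in 11 of the 19 (57.9%) against 26.5% of all probe sets. In 0 of the 19 did every dinaciclib array lie above every baseline array, against 10.1% of all probe sets. With 1 array left out, 2 to 6 member probe sets were called lower, with 2 without baseline 4, baseline 5 or dinaciclib 5, and 3 without dinaciclib 4. The median log2 change was -0.48 over the members and -0.21 over all probe sets.

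**Figure D1:**
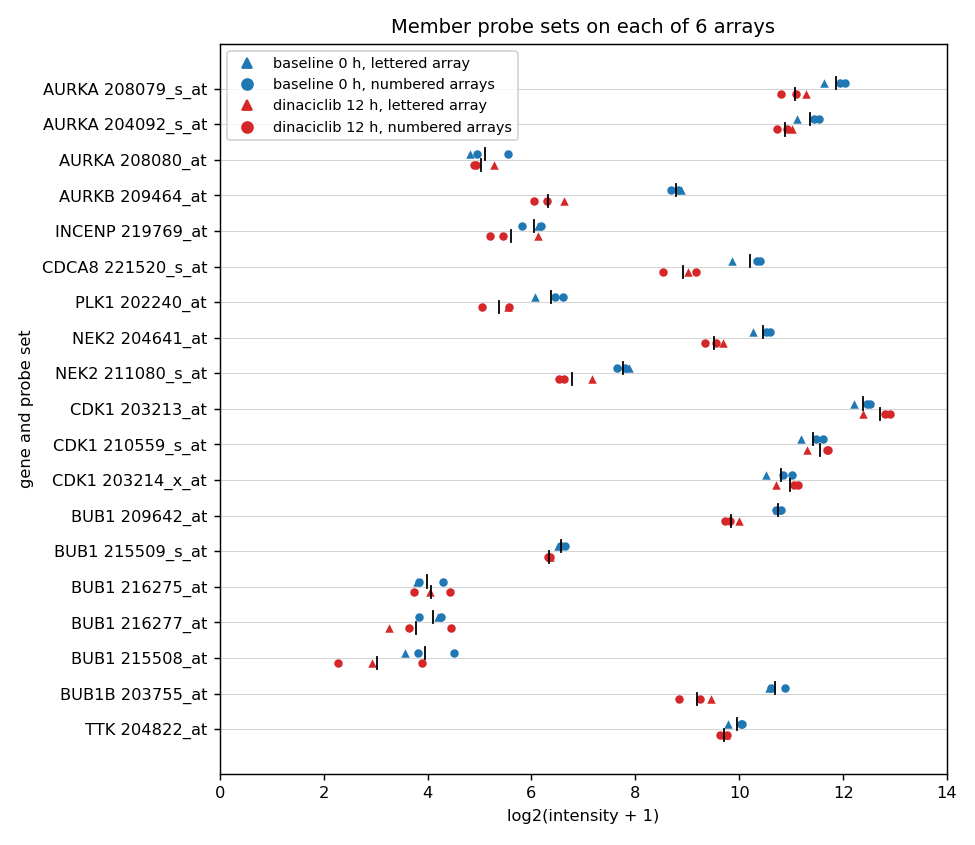
Each row is 1 member probe set, and each point is its log2(intensity + 1) on 1 array, in blue at baseline (0 h) and in red after 12 h of dinaciclib, with triangles for the lettered arrays E and F, circles for the numbered arrays, and a black bar at each group's mean. AURKB moved from 8.68 to 8.87 at baseline down to 6.04 to 6.62, while the CDK1 groups overlapped on all 3 probe sets.

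AURKB changed most of the members. Its only probe set (209464_at) read 466, 410 and 450 in baseline E, 4 and 5, and 97.6, 64.9 and 78.1 in dinaciclib F, 4 and 5. All dinaciclib arrays lay far below all baseline arrays. The mean log2 level went from 8.79 ± 0.10 to 6.32 ± 0.29 (SD, n = 3), a log2 change of -2.47 (SE 0.22; adjusted p = 0.00322 by limma with Benjamini-Hochberg adjustment), or 5.53-fold lower. The call was kept whichever 1 array was left out (adjusted p from 0.0103 to 0.0217).

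The other subunits of the passenger complex did not move to the same extent. CDCA8 (221520_s_at), whose protein borealin helps target the complex to centromeres, read 932, 1353 and 1306 at baseline and 516, 575 and 371 after dinaciclib. CDCA8 dropped from 10.21 ± 0.30 to 8.91 ± 0.33 log2 units (SD, n = 3), a change of -1.30 (SE 0.26; adjusted p = 0.0221 by limma with Benjamini-Hochberg adjustment), with no overlap of the groups. Without baseline 4 or 5 or dinaciclib F or 5, the adjusted p of CDCA8 was 0.0512 to 0.082 (limma, Benjamini-Hochberg). INCENP (219769_at), the scaffold that binds and activates Aurora B, read low, at 68.6, 55.3 and 71.7 at baseline and 69.1, 35.8 and 43.0 after dinaciclib. Its groups overlapped, because dinaciclib F lay within the baseline range. The change of INCENP, -0.44 with a 95% interval from -1.15 to 0.26, did not pass (adjusted p = 0.375 by limma with Benjamini-Hochberg adjustment). BIRC5, the survivin subunit, which is no member, had changes of -0.16, -0.37 and -0.15 on its 3 probe sets, and none passed. Within each array, the log2 difference of AURKB from INCENP, less its baseline mean, was -2.26, -1.91 and -1.91 in dinaciclib F, 4 and 5 and between -0.12 and 0.12 at baseline. Such a difference within an array does not depend on how arrays are scaled to each other by a constant. The same difference from CDCA8 was -0.97, -1.71 and -0.82 after dinaciclib and from -0.30 to 0.42 at baseline. AURKB was thus lower against both partners on every dinaciclib array than on any baseline array, a difference that was not tested. Because AURKB was the member that changed most, this largely restates the separate changes.

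Aurora A differed by probe set. The brightest (208079_s_at) read 3195, 4176 and 3918 at baseline and 2484, 2201 and 1797 after dinaciclib, with no overlap. Its change of -0.80, with a standard error of 0.22, did not pass narrowly (adjusted p = 0.0545 by limma with Benjamini-Hochberg adjustment), and it passed after quantile normalization (-0.89, adjusted p = 0.024) with log2(value + 16) (adjusted p = 0.0134), without dim probe sets (0.0109), with a robust variance trend (0.0045) and with the brightest probe set per gene alone (0.049). It did not pass under median centring (-0.35, adjusted p = 0.161), with spiked controls (0.102), with letter or number as a covariate (0.0585), in the numbered arrays alone (0.0636), with the replicate block (0.106) or in any of 6 fits with 1 array left out (0.0561 to 0.167). A second AURKA probe set (204092_s_at) read 2222, 2969 and 2766 at baseline and 2056, 1927 and 1695 after dinaciclib. The groups did not overlap there either, but the change was smaller, at -0.48 (95% interval -0.98 to 0.02; adjusted p = 0.178). The remaining, faint probe set (208080_at) read 27.1 to 45.8 at baseline and 28.6 to 37.6 after dinaciclib, with a change of -0.08. On every dinaciclib array the first AURKA probe set was lower against the second than on any baseline array, at -0.23 to -0.42 log2 units from the baseline mean. RefSeq lists pseudogenes of AURKA, AURKB, BUB1 and NEK2, and whether these probe sets also read near-identical transcripts was not tested.

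The centrosome kinases PLK1 and NEK2 fell. PLK1 (202240_at) read low, at 66.3, 86.5 and 96.9 at baseline and 45.8, 31.9 and 46.3 after dinaciclib, with no overlap. Its change of -0.99, with a standard error of 0.25, passed (adjusted p = 0.0424 by limma with Benjamini-Hochberg adjustment). Among the fits with 1 array left out it passed only without baseline E, and its adjusted p reached 0.142 in the others. NEK2 fell on both of its probe sets. The brighter (204641_at) read 1233, 1553 and 1469 at baseline and 819, 747 and 646 after dinaciclib, a change of -0.94 (SE 0.20; adjusted p = 0.0259 by limma with Benjamini-Hochberg adjustment). The dimmer (211080_s_at) read 234, 221 and 199, then 143, 97.8 and 91.7, a change of -1.0 with a standard error of 0.24 (adjusted p = 0.0355). The groups overlapped on neither, and the within-array difference between the NEK2 probe sets overlapped between the groups. Leaving out baseline 4 or 5 or dinaciclib 4 or 5 ended the NEK2 calls on both probe sets (adjusted p from 0.0789 to 0.111), and leaving out baseline E did so on the dimmer (0.0796).

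CDK1, a target of the drug and the master kinase of mitotic entry, had no lowered probe set, like AURKA and TTK, and its changes were above 0 on all 3 probe sets. Its brightest probe set (203213_at) read 4729, 5634 and 5836 at baseline and 5327, 7160 and 7645 after dinaciclib. The 2 numbered dinaciclib arrays lay above all baseline arrays and dinaciclib F lay among them. The change was 0.30 with a 95% interval from -0.24 to 0.84 (adjusted p = 0.433 by limma with Benjamini-Hochberg adjustment). The other CDK1 probe sets gave 0.14 (210559_s_at, 95% interval -0.40 to 0.68) and 0.17 (203214_x_at, -0.39 to 0.72). All 3 intervals held 0, and none reached below -0.40.

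The checkpoint kinases split. BUB1B (203755_at), which encodes BUBR1, a subunit of the inhibitor of the anaphase-promoting complex, read 1515, 1895 and 1568 at baseline and 706, 604 and 457 after dinaciclib. It fell from 10.69 ± 0.17 to 9.18 ± 0.32 log2 units (SD, n = 3), a change of -1.51 (SE 0.24; adjusted p = 0.0103 by limma with Benjamini-Hochberg adjustment), or 2.84-fold lower, and passed whichever 1 array was left out. BUB1, the kinase that marks the centromere for the passenger complex, had 5 probe sets. The brightest (209642_at) read 1685, 1781 and 1675, then 1023, 904 and 843, with a change of -0.90 (SE 0.18; adjusted p = 0.0222 by limma with Benjamini-Hochberg adjustment). Without baseline 4 or 5 or dinaciclib 4 or 5 it did not pass (adjusted p from 0.0737 to 0.0838). A second BUB1 probe set (215509_s_at) read 90.1, 98.7 and 94.1, then 80.7, 78.2 and 81.0, with no overlap but a change of -0.23 (95% interval -0.65 to 0.18). The other 3 read 3.83 to 21.8 over all arrays, overlapped between groups, and did not pass. TTK (204822_at), the upstream kinase of the checkpoint, read 884, 1055 and 1067 at baseline and 855, 874 and 791 after dinaciclib. Its groups did not overlap, yet the change of -0.25 (95% interval -0.70 to 0.20) did not pass (adjusted p = 0.434 by limma with Benjamini-Hochberg adjustment). Within each array, the log2 difference of BUB1B from TTK, less its baseline mean, was -1.0, -1.26 and -1.52 after dinaciclib and from -0.17 to 0.12 at baseline. The difference from BUB1 was -0.48, -0.53 and -0.83, again with no overlap. Neither difference was tested, and both largely restate the larger change of BUB1B.

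**Figure D2:**
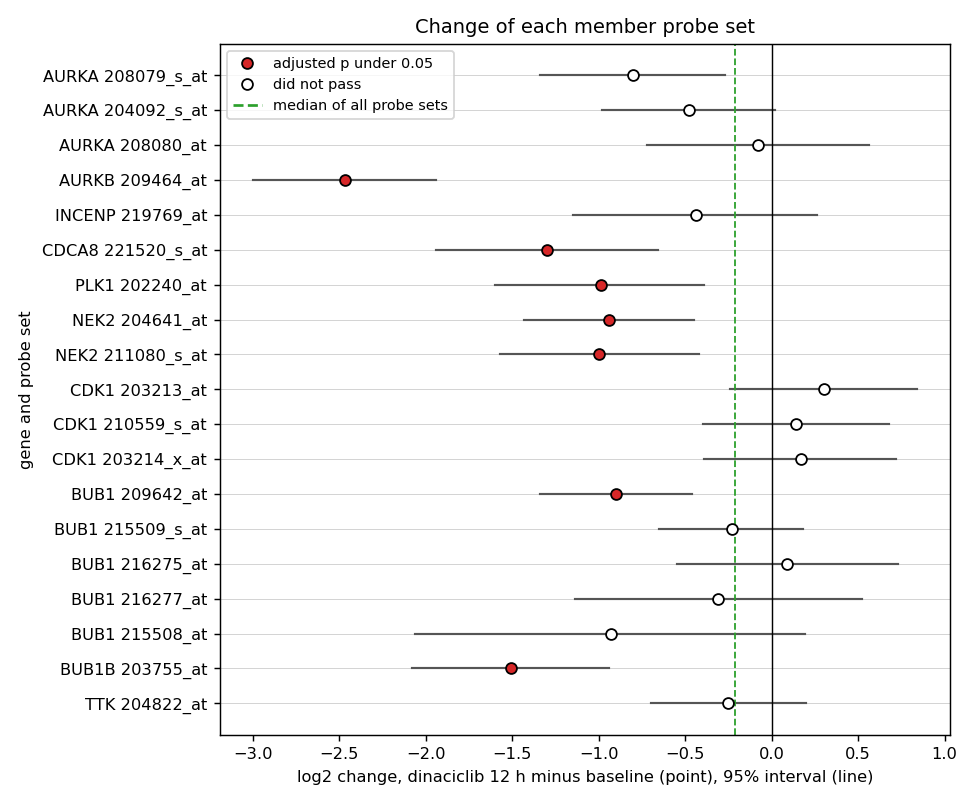
The log2 change of each member probe set, dinaciclib 12 h minus baseline, is drawn as a point with its 95% interval, filled red where the adjusted p was under 0.05, and the dashed line marks the median of all probe sets (-0.21). The 7 filled points lie between -2.47 and -0.90, and the 3 CDK1 points lie between 0.14 and 0.30.

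Set against CDK1 on the same array, 8 of the 9 other members lay lower on every dinaciclib array than on any baseline array. The same held for 42.8% of all other genes by their brightest probe set, and CDK1 itself had a change of 0.30 against a median of -0.26 over all genes. The mean shift was -2.77 for AURKB, -1.81 for BUB1B, -1.60 for CDCA8, -1.30 for PLK1, -1.25 for NEK2, -1.20 for BUB1, -1.11 for AURKA and -0.55 for TTK. INCENP shifted by -0.74 and overlapped, with dinaciclib F at 0.11 and dinaciclib 4 and 5 at -1.25 and -1.09. The AURKA and TTK values separated the groups relative to CDK1, as they also did as deposited, where neither passed the test. No test was made of these differences.

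**Figure D3:**
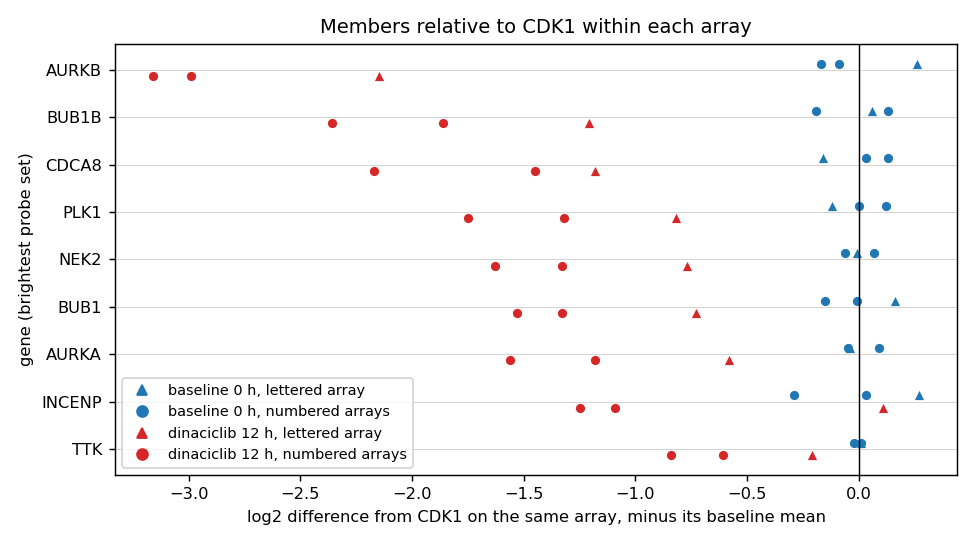
Points give, for each array, the log2 value of a member's brightest probe set minus that of CDK1, less the mean of that difference at baseline, in blue at baseline and red after dinaciclib, with triangles for lettered arrays. Red points lie left of all blue points for every gene but INCENP, from -3.16 for AURKB in dinaciclib 4 to -0.21 for TTK in dinaciclib F.

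Several member calls changed with the scaling of the arrays. As deposited, 2971 probe sets fell and 857 rose, with quantile normalization 2338 and 2130, with each array centred on its median 1938 and 3487, and with centring on spiked controls 2418 and 520. Member probe sets called lower numbered 6 after quantile normalization (10.5% of all probe sets were lower and 9.59% higher), 3 under median centring (8.72% and 15.7%) and 4 with spiked controls (10.9% and 2.34%). The median over all probe sets was -0.21, 0.03, 0.24 and -0.29 in turn. AURKB, CDCA8 and BUB1B fell under all 4 scalings, with log2 changes of -2.01 to -2.55 for AURKB, -1.06 to -1.59 for BUB1B and -0.85 to -1.38 for CDCA8. Under median centring PLK1 (-0.54), NEK2 (-0.49 and -0.54) and BUB1 (-0.44) did not pass, and CDK1 rose on its brightest probe set (0.75, adjusted p = 0.042 by limma with Benjamini-Hochberg adjustment), the only member probe set called higher under these scalings. PLK1 (-0.53, adjusted p = 0.212) and the dimmer NEK2 probe set (-0.53, adjusted p = 0.214) did not pass after quantile normalization either, while AURKA did on its brightest. Centring on the spiked controls ended the NEK2 (adjusted p = 0.0558 and 0.0648) and BUB1 (0.0558) calls. INCENP (0.01 after quantile normalization and median centring) and TTK (0.20 after median centring) turned sign without a call.

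**Figure D4:**
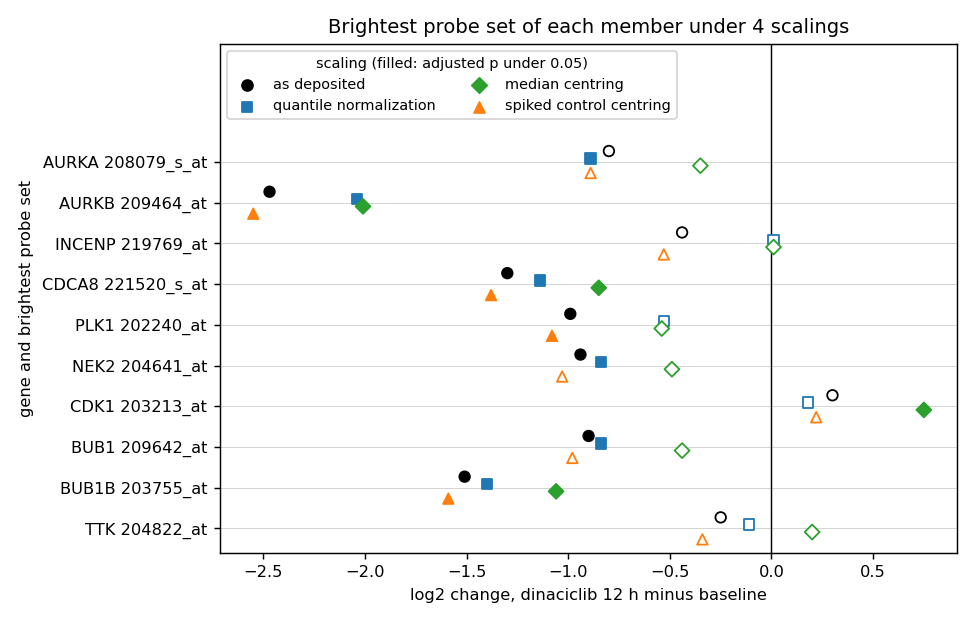
The log2 change of each member's brightest probe set, dinaciclib 12 h minus baseline, is shown for values as deposited, after quantile normalization, after median centring and after centring on spiked controls, filled where the adjusted p was under 0.05. AURKB, CDCA8 and BUB1B are filled under all 4, while AURKA is filled only after quantile normalization and CDK1 only under median centring.

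The lettered and numbered arrays gave the same direction for the lowered probe sets but not the same size. The shared direction is no separate support, because E and F were in the fit that called these probe sets. Dinaciclib F lay below baseline E for all 2971 probe sets called lower. From baseline E to dinaciclib F, AURKB changed by -2.24, BUB1B by -1.10, CDCA8 by -0.85, PLK1 by -0.52, NEK2 by -0.59 and -0.70 and BUB1 by -0.72. In the numbered arrays the changes were -2.58, -1.71, -1.52, -1.23, -1.12, -1.14 and -0.98. All 7 lowered probe sets changed less in the lettered pair, as did 78.3% of all probe sets called lower. Within the 4 numbered arrays, AURKB, BUB1B and the dimmer NEK2 probe set passed (limma, Benjamini-Hochberg adjusted p = 0.0367, 0.0435 and 0.048), 3 of 19 against 7.75% of all probe sets. The lettered batch holds 1 array per group and gives no test. With letter or number as a covariate, 6 member probe sets fell and PLK1 did not pass (adjusted p = 0.0526).

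Genes that work with these kinases were counted in 5 lists, each gene by its brightest probe set. Of 57 measured genes, 22 fell, 2 rose and 33 did not pass, beside 15.8% of all genes lower and 3.32% higher, and the median over all genes was -0.26. At an unadjusted p under 0.05, 26 of the 57 were lower and 3 higher. The background for that threshold and for the unadjusted counts of each list is 5106 lower and 1680 higher of all 22215 probe sets. Against these 24 calls, 13 were made without baseline 4 or baseline 5, and 14 without dinaciclib 4. The lower and higher counts were 19 and 3 after quantile normalization, 17 and 7 under median centring, and 17 and 0 with spiked controls. Of 19 spindle checkpoint and kinetochore genes, 9 fell and 0 rose (10 lower and 0 higher at an unadjusted p under 0.05), with a median log2 change of -0.72. DSN1, a subunit of the MIS12 kinetochore complex, read 607, 667 and 705 at baseline and 93.7, 81.6 and 76.6 after dinaciclib, a change of -2.96 (standard error 0.19). NDC80, which binds microtubules at the kinetochore, changed by -2.61 (standard error 0.24). The checkpoint proteins MAD2L1 (-0.21) and BUB3 (0.06) did not pass.

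Of 12 activators and partners of the member kinases, 6 fell and 0 rose (7 lower and 0 higher at an unadjusted p under 0.05), with a median of -0.70. CDC25C, a phosphatase that activates CDK1, read 339, 317 and 284 at baseline and 58.5, 47.1 and 37.7 after dinaciclib, a change of -2.71 (standard error 0.23), and CDC25B changed by -1.59 (standard error 0.26). TPX2, the activator of Aurora A on the spindle, did not pass (0.11, standard error 0.35). Its baseline E, at 834, lay far under the other baseline arrays, at 1739 and 1697. In the numbered arrays alone the change of TPX2 was -0.05 and did not pass either. Of 9 inhibitors and opposing phosphatases, 1 fell and 1 rose (2 lower and 1 higher at an unadjusted p under 0.05), with a median of 0.15. PKMYT1, which inhibits CDK1, fell (-0.86, standard error 0.19) and PPP2CA, a catalytic subunit of protein phosphatase 2A, rose (0.68, standard error 0.17). PKMYT1 did not pass under any of the 3 other scalings, and PPP2CA did not pass after centring on spiked controls or with any 1 array left out (0 of 6 fits). For ARPP19 and ENSA in this list, probe sets other than the brightest moved more, while the second of WEE1 changed like its brightest (0.52 and 0.51). ARPP19, whose phosphorylated protein inhibits protein phosphatase 2A, rose by 2.12 and 2.44 on 2 of its 3 probe sets under all 4 scalings, but not on its brightest (0.17). Its relative ENSA fell on 1 of 3 (-1.52), also under all 4 scalings, with -0.18 on its brightest.

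Of 7 other mitotic kinases, 4 fell and 0 rose (4 lower and 0 higher at an unadjusted p under 0.05), with a median of -1.14. AURKC, the germline paralog of the Auroras, read 20.5, 23.6 and 9.83 at baseline and 2.12, 3.47 and 2.81 after dinaciclib, near the floor of the array. Its change of -2.25 (standard error 0.36) shrank to -0.83 with log2(value + 16), where it still passed. MELK, a kinase of proliferating cells, changed by -1.46 (standard error 0.19). Of 10 genes of G2/M transcription, 2 fell and 1 rose (3 lower and 2 higher at an unadjusted p under 0.05), with a median of -0.38. RBL1 (p107), a pocket protein, changed by -2.67 (standard error 0.30) and LIN37, a DREAM complex subunit, by -1.08 (standard error 0.23), though LIN37 did not pass after quantile normalization or centring on spiked controls. NFYA, the subunit of NF-Y that contacts CCAAT, rose on all 4 of its probe sets, by 1.07 on the brightest and 3.44 on 1 other. The brightest did not pass after centring on spiked controls (adjusted p = 0.0712). With 1 array left out, NFYA passed in 2 of 6 fits and LIN37 in 1 of 6, as did PKMYT1. FOXM1 (-0.52, standard error 0.19) and MYBL2 (-0.43, standard error 0.22), transcription factors of G2/M genes, did not pass.

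**Figure D5:**
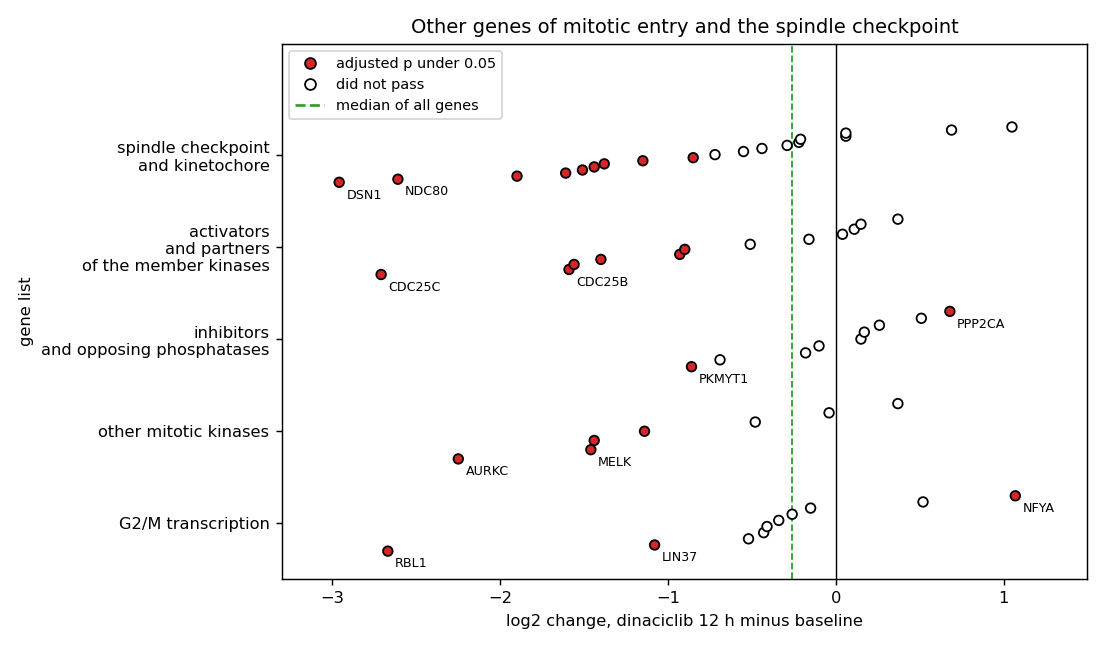
Each point is 1 gene of the 5 lists by its log2 change, dinaciclib 12 h minus baseline, on its brightest probe set, filled red where the adjusted p was under 0.05, with the dashed line at the median of all genes (-0.26). The filled points lie to the left except PPP2CA and NFYA, and DSN1 lies lowest at -2.96.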

How the data were processed

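The authors deposited a linear intensity for each probe set on each array, read from a single biotin label per the labels. How the authors made them from the scans, their background correction and scaling are not given in the sources used here, and precision is limited by having 3 arrays in each group. Probe sets were named from the platform annotation: after 62 control probe sets were left out, 19064 had 1 gene, 1043 several and 2108 none, and 0 symbols needed an update from RefSeq. All 22215 were tested as log2(value + 1) in R 4.3.3 with limma 3.58.1 (lmFit, then eBayes; group as the only term) and Benjamini-Hochberg adjustment over all of them, with a threshold of 0.05. Genes in lists were taken by their probe set with the highest mean. Standard deviations are between arrays. The members, lists and motifs were chosen with earlier results of these data known. Named genes were all members, AURKC, and in each list the called genes with the 2 strongest falls and 2 strongest rises, plus the 5 genes most like the members in pattern. BIRC5, MAD2L1, BUB3, TPX2, ARPP19, ENSA, FOXM1 and MYBL2 were named after their values were seen. Alternatives were 3 other scalings, a replicate block fitted on the numbered arrays without E and F, a covariate for letter or number, and the numbered arrays alone. Further ones were a robust fit with a variance trend, omission of dim probe sets (mean under the 40th percentile) and log2(value + 16). The last were only the brightest probe set per gene, and each array left out in turn. The fit was tested on simulated data drawn without shifts of whole arrays or differences between lettered and numbered arrays, so that test does not bear on scaling or batch. Figures used matplotlib 3.10.9 in Python 3.11.15.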

Additional observations from a re-analysis of the deposited data

How the results depend on the processing

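Of all probe sets, 3828 passed as deposited, 2170 in the numbered arrays alone and 1623 to 3313 with 1 array left out (1715 and 1623 without baseline 4 and 5, 2093 and 2138 without dinaciclib 4 and 5). For the member probe sets called lower, 7 as deposited, the count was 3 under median centring, 4 with spiked control centring, 3 in the numbered arrays alone and 2 to 6 with 1 array left out (2 without baseline 4, baseline 5 or dinaciclib 5, and 3 without dinaciclib 4). It was 6 to 8 under the other alternatives except the block. Median centring called 1 member probe set higher, and no other alternative did. Of the pathway genes, 24 were called as deposited, 13 in the numbered arrays and 13 to 22 with 1 array left out. Replicate numbers 4 and 5 are shared between the groups, and the sample titles number the arrays consecutively within E and F and within each shared number. Deviations from the group means correlated at 0.083 and 0.076 for 4 and 5 and at 0.169 for E and F. The unmatched pairs of arrays gave -0.111 to 0.038. No label says that these arrays form pairs, and the main fit treats them as unpaired. The replicate block was fitted on the numbered arrays alone, without E and F, and leaves 1 residual degree of freedom. With it, limma called 0 probe sets, 0 members and 0 pathway genes. At an unadjusted p under 0.05, 5210 probe sets, 10 members and 25 pathway genes were lower in that fit, and 1589, 0 and 3 higher. The cause of the other changes was not tested. Signs turned without a call for AURKA 208080_at (0.27 quantile, 0.37 median centring, up to 0.14 without baseline 4, and as low as -0.23 with another array left out), INCENP (0.01 in both), BUB1 215509_s_at (0.26 and 0.22), BUB1 216277_at (0.14 median centring, 0.00 in the numbered arrays and the block), TTK (0.20 median centring) and BUB1 216275_at (-0.09 to 0.25 with 1 array left out). Low signal limits the 3 dim BUB1 probe sets and the low-reading PLK1 and INCENP, whose changes shrink with the larger pseudocount of 16 (INCENP from -0.44 to -0.34).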

Other observations

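Genes outside the members with the most similar pattern were sought among 7777 genes above the 40th percentile of brightness, by Pearson's r over the 6 arrays with the mean of the standardised brightest member probe sets. The 5 closest were CHMP7 (r = 0.9982), an ESCRT subunit that seals the nuclear envelope at the end of mitosis, TUBGCP3 (0.9977), a subunit of the gamma-tubulin complex that nucleates microtubules, MCM9 (0.9975), a helicase of recombination repair, ALAS1 (0.9974), the first enzyme of heme synthesis, and TTC17 (0.9963). TUBGCP3 read 798, 1122 and 1101 at baseline and 446, 357 and 356 after dinaciclib. With 6 arrays in 2 groups such likeness is common, since 2042 of the 7777 genes (26.3%) had an r above 0.9, and it describes these arrays only. Among the members, the brightest probe set of NEK2 lay closest to that mean (r = 0.99), INCENP at 0.65 and the brightest of CDK1 at -0.62, values that include each gene's own share of the mean.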
